A study of Mus musculus with 2 samples.

Results

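*Ifit1*, *Ifit2*, *Ifit3*, *Ifitm1*, *Ifitm2* and *Ifitm3*, 6 interferon-induced antiviral genes of the mouse, were followed in primary hepatocytes with and without Drp1. Members were all non-control array rows that carry 1 of these gene names, and 5 of the 6 genes were found among 37074 gene names on the array. Each of the 5 had 1 probe, printed in 1 spot. No row was named *Ifitm2*, and this gene was not analysed further on the arrays. The study asked how loss of Drp1, the dynamin-related GTPase that divides mitochondria, alters gene expression in hepatocytes. *Drp1*LiKO mice carried 2 floxed *Drp1* alleles and an Alb-Cre transgene, in which the albumin promoter drives Cre in hepatocytes. Control mice are labeled wild type, and the methods describe them as *Drp1*flox/flox littermates without Cre, so that both genotypes carried the floxed alleles on a C57BL/6 background. The ages of the mice used for the arrays were not given in the sources used here. Hepatocytes were isolated by collagenase perfusion and low-speed centrifugation, plated on collagen, given new medium at 4 h and harvested 24 h after seeding, with no lipopolysaccharide in either culture. Such plated preparations can retain other liver cells.

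IFIT proteins are cytoplasmic proteins built of helical repeats that bind RNA or each other. They recognise RNA that lacks the cap modifications of the host and interfere with its translation. IFITM proteins are small membrane proteins that block the fusion of virus and cell membranes. Type I interferons induce both families through a transcription factor complex that binds interferon-stimulated response elements in promoters, and hepatocytes as well as resident liver macrophages can respond.

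The 3 IFIT members lie close together on chromosome 19 and the 3 IFITM members on chromosome 7, and some of their promoter windows share sequence cores. Sequences were taken from RefSeq promoter windows of 300 bases (GRCm38.p6), which lie mostly before the gene start, and searched on both strands for GAAANNGAA, the core of the interferon-stimulated response element, and TTCNNNGAA, the core of the STAT site called GAS. Windows were found for all 6 genes. Of 32851 windows in the table, 8.56% held GAAANNGAA and 8.30% held TTCNNNGAA. The windows of *Ifit1* and *Ifit3* each held 3 matches to GAAANNGAA, a number reached by 21 windows of the table (0.0639%), of which 4 belonged to IFIT genes. The stretches with these matches are shown for *Ifit1* (chr19:34640770-34640823, plus strand), *Ifit3* (chr19:34583364-34583445, plus strand) and its close paralog *Ifit3b* (chr19:34607760-34607841, plus strand). Capitals mark the matches, which read as TTCNNTTTC because they lie on the other strand, and the first 2 of *Ifit1* overlap.
Ifit1: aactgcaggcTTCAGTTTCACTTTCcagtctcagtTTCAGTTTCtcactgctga
Ifit3: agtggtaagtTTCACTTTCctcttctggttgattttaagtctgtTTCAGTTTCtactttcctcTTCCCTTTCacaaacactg
Ifit3b: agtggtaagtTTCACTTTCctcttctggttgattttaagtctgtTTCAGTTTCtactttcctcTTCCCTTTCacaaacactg
The printed stretches of *Ifit3* and *Ifit3b* are the same 82 bases, and over 260 aligned bases of their windows 259 were identical.

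The windows of the other members differed from these. Neither of 2 windows of *Ifit2* held GAAANNGAA, and 1 of them held TTCNNNGAA, 241 bases before the start. The *Ifitm1* window held neither core. *Ifitm2* (chr7:140955979-140956027, minus strand) had 1 match to GAAANNGAA that began 46 bases before the start, and *Ifitm3* (chr7:141010717-141010742, minus strand) had 2 matches just after the start and 1 match to TTCNNNGAA that overlaps the second of them. These are shown to set them beside the IFIT sequences, with the matches to GAAANNGAA in capitals.
Ifitm2: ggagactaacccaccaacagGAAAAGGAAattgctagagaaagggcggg
Ifitm3: GAAAAGGAAacttctgaGAAACCGAA
A match describes the letters of a window and is not evidence of binding.

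Each genotype was measured on 1 array with Cy3-labeled RNA, and the slide and the scan were the same for both. Without replicates the comparison is descriptive and carries no p-value, and the number of arrays limits the precision. Values are processed signals, the intensity of a spot after background subtraction. Those of the members are given with the error that the scanner software assigned to the spot. Log2 ratios were taken as *Drp1*LiKO minus control after scaling each array to its own 75th percentile, which was 313 for control and 356 for *Drp1*LiKO. The Z score is the ratio minus the mean of all probes compared, divided by their SD. A gene counts as past the threshold at a Z score of at least 2 in size, which corresponds to a log2 ratio of 1.30 or -1.31. The study names the same cut-off, but its own processing was not repeated here, so its calls can differ. Spot noise is the spread between spots of probes printed several times on 1 array, at a similar signal, and does not include the variation between mice or cultures. Signals of different probes were not set against each other, save in sums over marker lists, which add the signals before scaling.

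Of the 5 members, 3 were past the threshold toward higher signal in *Drp1*LiKO cells and none toward lower signal, beside 3.50% (705 of 20165) and 2.81% (566 of 20165) of all genes compared, respectively. Since each member had 1 probe, the count of probes was the same, beside 2.94% higher and 2.49% lower of 30275 probes. The members past the threshold were *Ifit3*, *Ifit1* and *Ifitm1*, the last of them by a lower bound. *Ifitm3* was higher but did not reach the threshold, and *Ifit2* was slightly lower. The median log2 ratio was 1.41 over the 5 members, where it is the bound of *Ifitm1*, 3.53 over the 3 IFIT genes and 1.24 over the 2 IFITM genes, beside -0.05 over all genes compared.

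**Figure D1:**
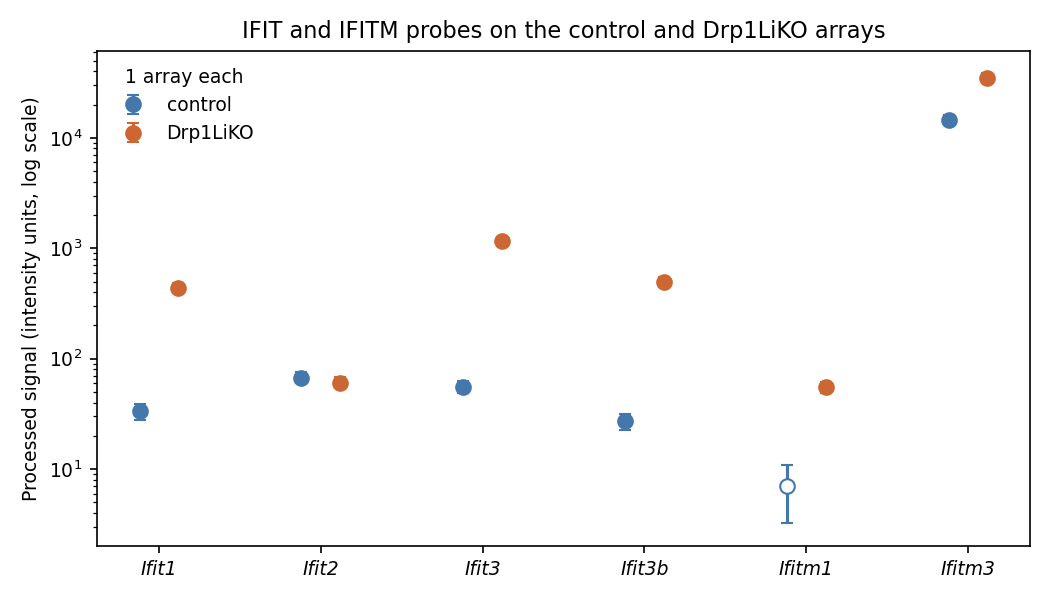
Processed signal of each probe on a log scale in control (blue) and *Drp1*LiKO cells (orange), 1 array each, with the error that the scanner software gives each spot as bars. The open point marks a signal not well above background, and *Ifit2* differs from *Ifit1*, *Ifit3* and *Ifit3b* in that its points lie side by side (67.6 and 60.9).

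*Ifit3*, whose product binds other IFIT proteins, had the largest ratio of the members. Its probe (NM_010501, chromosome 19 of mm9 from 34663105 to 34663164) read 55.7 ± 6.80 on the control array and 1154 ± 115 on the *Drp1*LiKO array (software error, 1 spot each). The signal was low but well above background in control cells and 18.2-fold higher in *Drp1*LiKO cells after scaling, a log2 ratio of 4.19 with a spot noise of 0.16 and a Z score of 6.44. It ranked 8 of 17735 genes measured on both arrays. 

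*Ifit1*, which binds capped RNA without the methylation of host caps, followed. Its probe (NM_008331, chromosome 19 of mm9 from 34723827 to 34723886) read 33.4 ± 5.22 on the control array and 437 ± 43.8 on the *Drp1*LiKO array. The ratio was 11.5-fold, a log2 ratio of 3.53 with a spot noise of 0.18 and a Z score of 5.42, rank 22 of 17735. The ratio of *Ifit3* exceeded that of *Ifit1* by 0.66 on the log2 scale, where spot noise of the difference was 0.24. Both genes had a dim control spot and a *Drp1*LiKO spot far outside the noise between spots.

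*Ifit2*, an RNA-binding member known to protect the mouse brain from neurotropic viruses, did not move with them. Its probe (NM_008332, chromosome 19 of mm9 from 34650244 to 34650303) read 67.6 ± 7.72 on the control array and 60.9 ± 6.81 on the *Drp1*LiKO array, well above background on both arrays. The log2 ratio was -0.33 (1.26-fold lower) with a spot noise of 0.21 and a Z score of -0.50, rank 3362 of 17735 from the lowest ratio. *Ifit3* exceeded *Ifit2* by 4.52 in log2 ratio and *Ifit1* exceeded it by 3.86, with spot noise of 0.26 and 0.28. With 1 probe for *Ifit2*, other parts of its transcript were not measured.

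*Ifitm3*, which acts in endosomes against viruses that enter there, was the best measured IFITM gene. Its probe (NM_025378, chromosome 7 of mm9 from 148195489 to 148195548) read 14629 ± 1463 on the control array and 34896 ± 3490 on the *Drp1*LiKO array, and no spot on either array was saturated. The ratio was 2.10-fold, a log2 ratio of 1.07 with a spot noise of 0.060 and a Z score of 1.65. *Ifitm3* had a ratio many times its spot noise and higher than 96.4% of genes measured on both arrays, yet lay short of the threshold as computed here. The study lists *Ifitm3* among the immune genes that it selected as higher in *Drp1*LiKO cells.

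*Ifitm1*, which acts mainly at the cell surface, was measured in *Drp1*LiKO cells. Its probe (NM_001112715, chromosome 7 of mm9 from 148155659 to 148155718) read 7.05 ± 3.80 on the control array, not well above background, and 54.9 ± 6.29 on the *Drp1*LiKO array. Set against 18.2, the lowest signal well above background on the control array, it was at least 2.66-fold higher in *Drp1*LiKO cells, that is a log2 ratio of at least 1.41, with a Z score of 2.17, whereas the measured signals differed by 2.78 on the log2 scale. The bound fell short of the threshold after normexp background correction (log2 ratio 0.48), with the deposited normalized values (1.07) and with the Z score taken among probes of similar signal (Z score 1.31). 

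The probes of *Ifitm1* and *Ifitm3* resemble each other, since 39 of 48 aligned bases were identical. The last 30 aligned bases are shown, with the mismatched bases in capitals.
Ifitm1: GtccaTGgtggaCtcaataaagtgcacGtg
Ifitm3: AtccaCAgtggaTtcaataaagtgcacTtg
The longest identical run was 14 bases, and how far *Ifitm3* RNA contributes to the *Ifitm1* spot was not tested. For *Ifit3* and *Ifit3b*, the best local alignment of the probes covered 8 bases, which compares the probes and not the RNA that each can read.

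**Figure D2:**
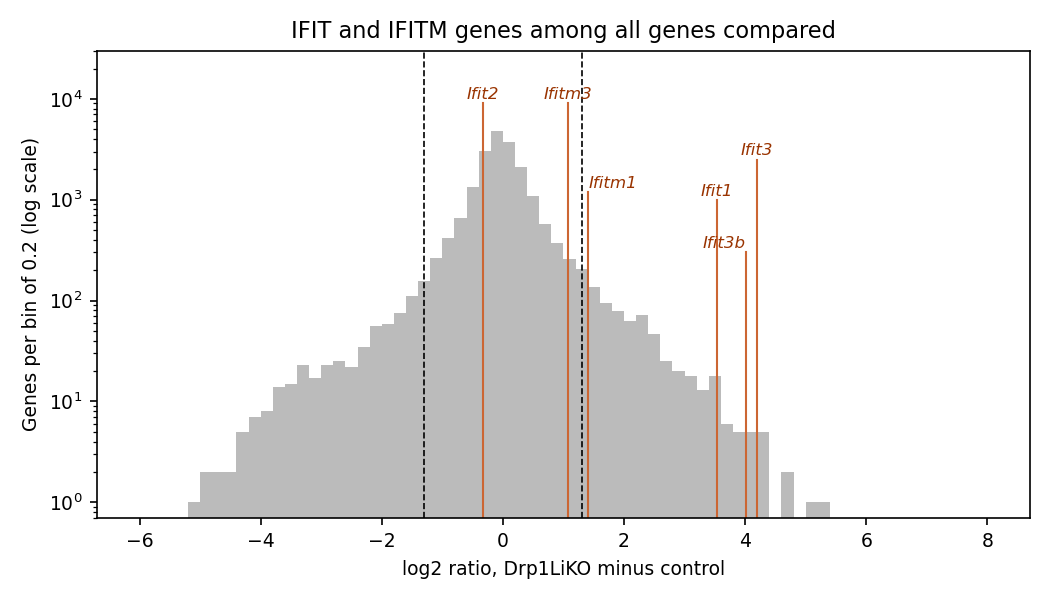
Log2 ratios of 20165 genes (brightest probe; grey, bins of 0.2, log count axis) with the members and *Ifit3b* as orange lines and the thresholds of 1.30 and -1.31 dashed. *Ifit1* (3.53), *Ifit3b* (4.01) and *Ifit3* (4.19) lie in the sparse upper tail, *Ifitm1* (a bound of 1.41) just past the threshold, *Ifitm3* (1.07) below it and *Ifit2* (-0.33) in the bulk.

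Other genes of the families gave both kinds of value. Of 10 names listed, 7 were on the array, 4 were compared and 1 was past the threshold. *Ifit3b* (NM_001005858), a paralog of *Ifit3*, read 27.1 on the control array and 494 on the *Drp1*LiKO array, a log2 ratio of 4.01. The ratios of *Ifit3* and *Ifit3b* differed by 0.18, within the spot noise of 0.24, and whether either probe also reads the RNA of the other gene was not tested. *2010002M12Rik*, listed by RefSeq as a synonym of *Ifit1bl2*, read 74.6 on the control array and 98.1 on the *Drp1*LiKO array, a log2 ratio of 0.21. A window of *Ifit1bl2* and that of *Ifit1* lie on opposite strands and share 245 bases, so the matches to GAAANNGAA shown above for *Ifit1* stand in both. A second window of *Ifit1bl2* held no such match. The ratio of *Ifit1* exceeded that of *2010002M12Rik* by 3.32 with a spot noise of 0.28, and which start *2010002M12Rik* used was not tested.

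Among the IFITM relatives, *Ifitm7* had 2 probes that disagreed. One read 9685 on the control array and 20766 on the *Drp1*LiKO array, a log2 ratio of 0.92, and the other 16457 and 22159, a log2 ratio of 0.25. The probe with the smaller ratio is annotated to an Ensembl transcript and holds a run of 30 alternating G and T bases, and the other is annotated to a RefSeq transcript and holds no such run longer than 4 bases. *Ifitm10* had log2 ratios of -0.21 and -0.01 at the probes measured. *Ifitm5*, *Ifitm6* and *Gm14446* (an IFIT gene) were not well above background on either array.

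The chromosomal neighbours of the members were mostly short of the threshold. All genes with a probe within 250 kb of a member probe were taken, family genes apart. On chromosome 19, 5 of 7 such genes were compared and 1 was past the threshold, with a median log2 ratio of 0.31. This gene was *Ch25h*, an interferon-inducible cholesterol hydroxylase with antiviral action, whose probe read 25.1 on the control array and 224 on the *Drp1*LiKO array, a log2 ratio of 2.97. *Lipa* (0.31), *Slc16a12* (0.52), *Pank1* (-0.26) and *Fas* (-0.80) did not reach the threshold. Between *Ifit2* and *Ifit1*, a distance of 73.6 kb between the probes, genes with log2 ratios of -0.33, 4.19, 4.01, 0.21 and 3.53 followed each other.

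On chromosome 7, 17 of 28 neighbours were compared, with a median log2 ratio of 0.09. They ranged from -0.78 for *Cyp2e1*, a cytochrome P450 of hepatocytes, to 1.32 for *BC024386*, which was the 1 neighbour past the threshold. Within this window *Ifitm1* and *Ifitm3* lay among genes of which most had a ratio closer to 0.

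**Figure D3:**
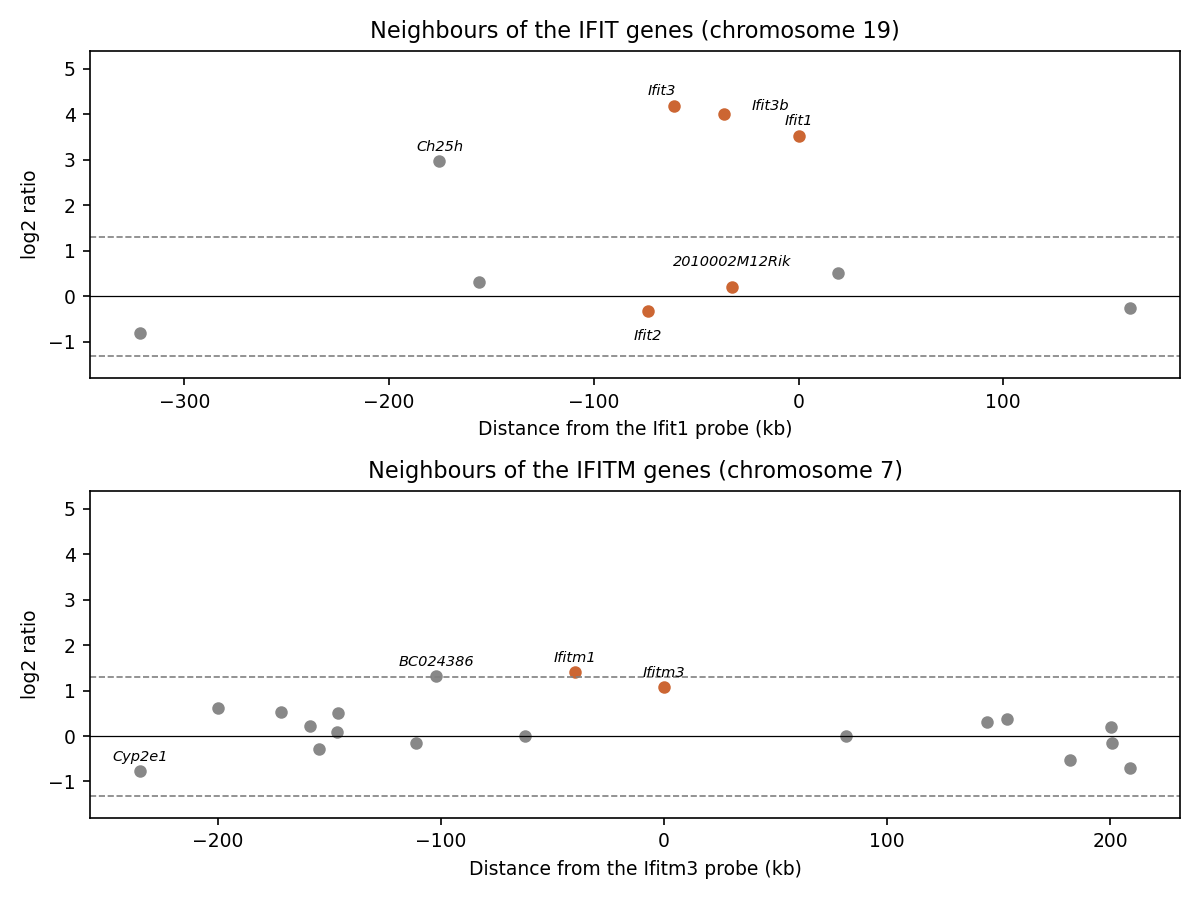
Log2 ratio against distance in kb from the *Ifit1* probe (upper panel) or the *Ifitm3* probe (lower panel) for genes compared, 1 probe per gene, family genes in orange, other genes in grey, thresholds dashed. *Ifit3*, *Ifit3b* and *Ifit1* stand between 3.53 and 4.19, while *2010002M12Rik* (0.21), which lies between *Ifit3b* and *Ifit1*, and *Ifit2* (-0.33), which lies beyond *Ifit3*, are near 0 in ratio.

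Genes that act upstream of the members or beside them were described from lists by role. Over 7 lists of ligands, receptors, signal transducers, regulatory factors, restraints, sensors and effectors, 55 genes were compared, 19 were past the threshold toward higher and 1 toward lower signal, and the median log2 ratio was 0.69. Among the ligands, 8 of 18 genes on the array were compared and 1 was past the threshold. This was *Ifnb1*, the gene of interferon beta, read at 6.27 on the control array, not well above background, and at 93.3 on the *Drp1*LiKO array, at least 4.51-fold higher. The ligands measured on both arrays had log2 ratios between -0.71 and 0.39, the ratios of *Ifna11* (at least 0.97) and *Ifna14* (at least 0.28) are bounds short of the threshold, and *Ifng* was not well above background on either array. 

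None of the 6 receptor genes was past the threshold, and their log2 ratios lay between -0.15 and 0.85. Of the 5 signal transducers compared, *Stat2* (log2 ratio 1.35), a transcription factor of the type I response, was past the threshold at its brightest probe. The second, dim probe of *Stat2* gave 1.01, short of the threshold. *Irf9*, the partner of *Stat2*, had a ratio of 1.00. *Irf7*, a regulatory factor that is itself induced by interferon, read 9848 on the control array and 43780 on the *Drp1*LiKO array (log2 ratio 1.97) and was the 1 of 6 factors past the threshold. Of the 3 restraints, *Usp18*, which removes ISG15 from proteins and dampens receptor signaling, was past it with 2.41. 

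Among 10 sensors of foreign nucleic acid, *Zbp1* (2.38) and *Dhx58* (1.66) were past the threshold toward higher signal. *Ddx58* was short of it at its brightest probe (0.99) and at a dim one (0.93), while its other probes gave 1.31 and 1.36, past the threshold. *Mb21d1*, the gene of the DNA sensor cGAS, was past it in the opposite direction, read at 270.3 on the control array and at 115 on the *Drp1*LiKO array with a log2 ratio of -1.42. Its second, dim probe gave -0.66. 

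The other antiviral effectors had the highest median of these lists. All 17 were compared and 13 were past the threshold, all toward higher signal, with a median log2 ratio of 2.47, which is the bound of *Oas3*. The ratios of *Mx1*, *Oas2* and *Ifi44* are bounds too, and each of the 4 was not well above background on the control array. Effectors past the threshold and measured on both arrays ranged from *Bst2* (1.34), which tethers budding virus to the cell, to *Rsad2* (5.36), the gene of viperin, which made the largest ratio of all genes measured on both arrays at its brighter probe and 3.01 at the other. Effectors short of the threshold were *Herc6* (0.80), *Ifi35* (0.69), *Eif2ak2* (0.25) and *Samhd1* (0.17). The ratio of *Ifitm3* lay between those of *Bst2* and *Herc6*, and *Ifit2* had a lower ratio than every one of these 17 genes. None of 5 genes for IFIT partners and translation factors was past the threshold (median log2 ratio -0.14). They include *Eif3c* and *Eif3e* of the initiation factor that IFIT proteins bind. Their log2 ratios ranged from -0.42 to 1.24, the value of *Tmem173*, which is also on the sensor list.

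**Figure D4:**
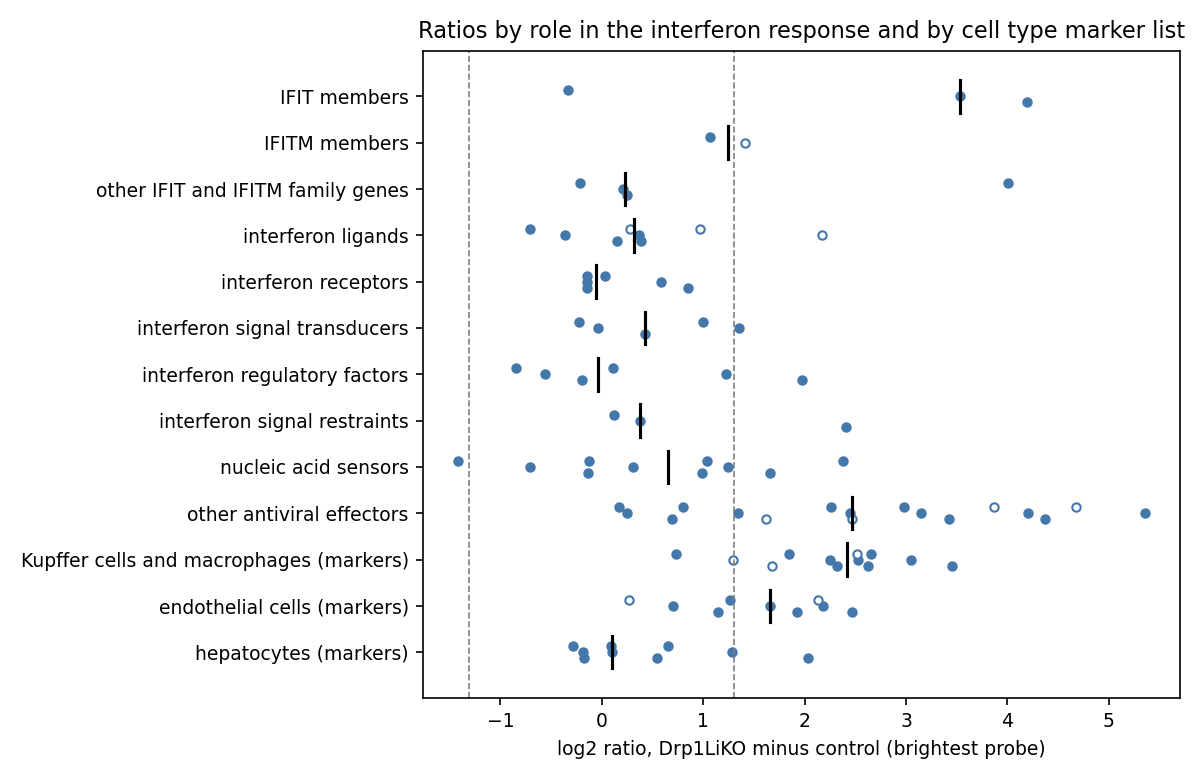
Log2 ratio of each gene (brightest probe) by list, with a bar at the median of each list, open points for ratios that are bounds and the thresholds dashed. Effectors (median 2.47) and Kupffer cell and macrophage markers (2.42) lie mostly past the upper threshold, while receptors (-0.06) and hepatocyte markers (0.10) lie near 0.

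Markers of macrophages, endothelial cells and stellate cells were also higher in *Drp1*LiKO cells. Of 14 Kupffer cell and macrophage markers on the array, 12 were compared, all 12 had higher signals and 10 were past the threshold. Those past it and measured on both arrays ranged from *Cd68* (log2 ratio 1.85) to *Marco* (3.45), and 3 of the 12 ratios are bounds. The summed signal of the 12 was 4718 for control and 20533 for *Drp1*LiKO, of which *Cd68* made 2346 and 9593. *Cd163* and *Timd4* of this list were not well above background on either array. Of 9 endothelial markers 5 were past the threshold, with *Kdr* (2.47) the highest of those measured on both arrays. The ratios of *Lyve1* (at least 2.13, past the threshold) and *Tek* (at least 0.27, short of it) are bounds. The summed signals of the 9 markers, 4262 and 8960, came mostly from *Egfl7* (3773 and 6941, log2 ratio 0.70), which was short of the threshold. Of 7 stellate cell and fibroblast markers compared 4 were past it, with *Dcn* (4.06) the highest of those measured on both arrays. The ratios of *Pdgfrb* (at least 1.86) and *Col3a1* (at least 3.13), both past the threshold, are bounds. Neither gene was well above background on the control array. The summed signals of the 7 markers were 517 and 5495, of which *Dcn* made 203 and 3848. *Reln* (1.04), *Col1a1* (1.04 at its brightest probe) and *Des* (a bound, at least -0.16) were short of the threshold. A dimmer probe of *Col1a1* gave 1.65, past the threshold. *Lrat*, which defines stellate cells, was not well above background on either array. In bulk RNA, fewer or more cells of a type and a different amount of RNA per cell cannot be told apart. The part of these cells in the values of the IFIT and IFITM genes was not tested.

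Other marker lists did not move in this way. The hepatocyte markers had a median log2 ratio of 0.10 over 9 genes, with summed signals of 629332 for control and 698277 for *Drp1*LiKO, and 1 of them, *Cyp3a11* (2.03), was past the threshold. Of 6 neutrophil markers 3 were compared, of which 1 was past the threshold by a bound, and *S100a8*, *S100a9* and *Mpo* were not well above background on either array. The T and NK cell, B cell and plasmacytoid dendritic cell lists had no gene past the threshold, and 5 of 7, 3 of 4 and 2 of 4 of their genes were not well above background on either array. 

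The targeted gene, *Dnm1l*, was lower at its brighter probe (NM_001276340), which read 2602 for control and 1217 for *Drp1*LiKO, a log2 ratio of -1.28 and a Z score of -1.95, and its dim probe gave -0.31. The sources used here do not say whether these probes lie in the deleted part of the gene.

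The genes whose ratio was nearest to that of *Ifit3* were *Oas1g* (4.20), *Oas1a* (4.20), *Casp4* (4.22), *Oas1f* (4.14) and *Ms4a7* (4.06). *Oas1a* and *Oas1g* belong to the oligoadenylate synthetases, which sense double-stranded RNA, and *Casp4* encodes an inflammatory caspase. Only 4 of 17731 other genes measured on both arrays lay within 0.1 of *Ifit3*, against 207 within 0.1 of *Ifitm3*. The nearest to *Ifitm3* were *Tmem202*, *Acot5*, *Usp35*, *AI413582* and *Adssl1*, each with a log2 ratio of 1.07. These likenesses are differences of 1 ratio between 2 arrays.

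**Figure D5:**
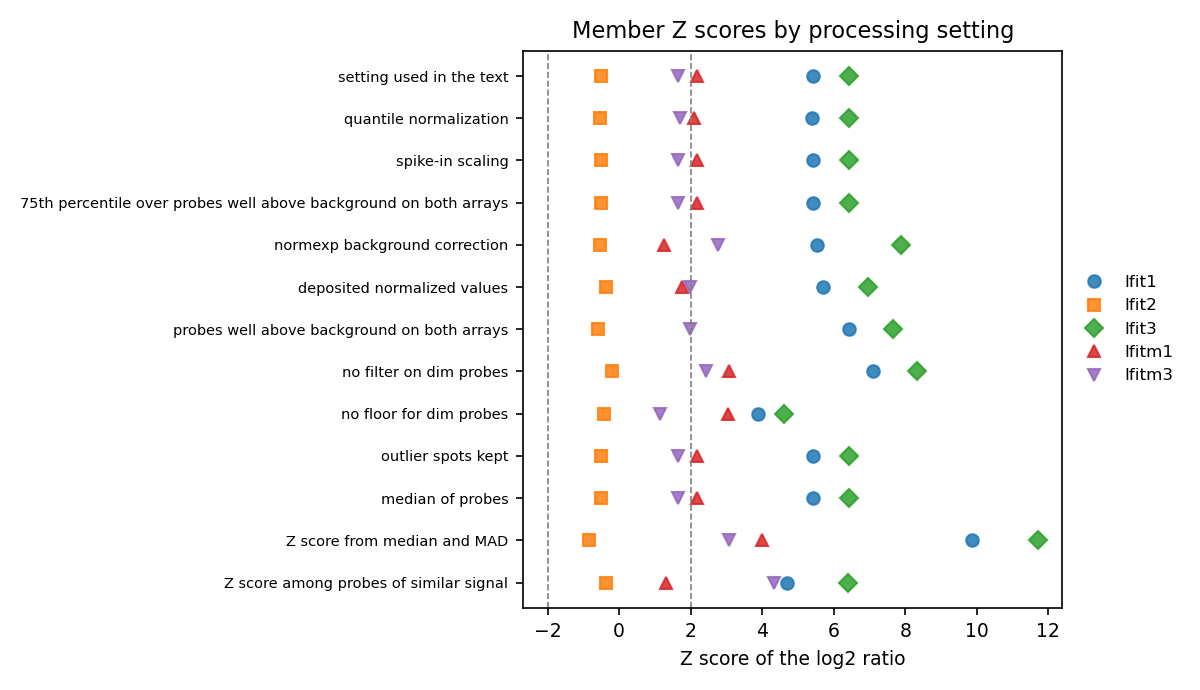
Z score of each member under the setting used in the text and 12 others, with the thresholds of 2 and -2 dashed. *Ifit1* (3.88 to 9.87) and *Ifit3* (4.62 to 11.7) lie past the threshold under all 13 settings and *Ifit2* (-0.83 to -0.21) under none, while *Ifitm1* and *Ifitm3* lie on both sides of it.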

How the data were processed

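RNA of control and *Drp1*LiKO primary hepatocytes was measured on 1 Agilent 1-color mouse array per genotype. The authors deposited the Feature Extraction output of each array, with the raw mean intensity of each spot, its local background, a background-corrected processed intensity and flags (well above background, saturated, outlier). The submitters' processing notes name Agilent Feature Extraction 9.5.1.1, and the file headers a later version. A second deposited file holds normalized intensities of the same arrays, and the normalization method is not given in the sources used here. Its *Drp1*LiKO values correlated by rank with that array at 0.958 and its control values at 1.0, so it served only as an alternative, with 1 detection limit for both columns, chosen after its values were seen.

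Control and outlier spots were left out, spots of a probe were averaged on the log2 scale, and each array was scaled to its 75th percentile. A probe was kept if it stood well above background on either array (30275 of 56600). Dimmer signals were raised to the lowest signal well above background on that array, 18.2 for control and 15.0 for *Drp1*LiKO. A gene was its brightest probe. The percentage of probes well above background was 48.2 for control and 52.1 for *Drp1*LiKO. Probe coordinates are those of the files (mm9), and promoter windows those of RefSeq (GRCm38.p6), and no coordinate was converted.

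Members and gene lists were chosen with earlier results of these data known. Named were the members, *Dnm1l*, the genes past the threshold on both arrays with the largest and smallest ratio of each list and any that moved against it, neighbours within 250 kb, and the 5 genes nearest in ratio to *Ifit3* and to *Ifitm3*. Other genes were chosen after their values were seen. From the pathway lists 1 gene was left out, also from the counts, and is not reported here. With 1 array per genotype no test, error between cultures or block for slide or scan could be had. The steps were tested on simulated data, which changed only genes with a bright probe on the control array. Both arrays had the same calls of well above background there. Changes at dim spots and ratios that are bounds were therefore not covered by that test. Alternatives were quantile normalization, spike-in scaling, the percentile over probes detected on both arrays, normexp with an offset of 50, the deposited table, other filters, no floor, outlier spots kept, the median of probes, and Z scores from the median and MAD or among 20 bins of signal. Calculations used Python 3.11.15 with numpy 2.4.6 and pandas 2.3.3, and R 4.3.3 with limma 3.58.1.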

Additional observations from a re-analysis of the deposited data

How the results depend on the processing

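The count of 3 members past the threshold stayed within 2 to 4 under all 12 alternatives. It was 2 with the deposited normalized values and with probes well above background on both arrays, which leaves out *Ifitm1*, and 4 without a filter on dim probes and with a Z score from the median and MAD. The median log2 ratio of the members, 1.41, was 1.11 after normexp, 1.20 with the deposited values, 2.30 with probes well above background on both arrays and 2.78 without a floor. Over the IFIT genes alone, a choice made after seeing the data, it was 3.53. *Dnm1l* had -0.79 by the median of its probes in place of -1.28, and between -1.34 and -1.21 under the other alternatives. *Ifit1*, *Ifit3* and *Ifit3b* had their lowest ratios after normexp (2.24, 3.21 and 2.52), an offset that shrinks ratios of dim spots. *Ifitm3* was past the threshold after normexp, without a filter, with the median and MAD, and among probes of similar signal, and *Ifitm1* was short of it in 3 of the 12 settings that kept it. Without a filter on dim probes 1355 genes were past the threshold toward higher signal, and 1722 higher and 1443 lower with the median and MAD, beside 705 and 566, and without a filter the median of all genes was -0.47. The number of pathway genes past the threshold, and those of the effectors and macrophage markers, stayed within 1.5 times their counts under every alternative, runs added after seeing the data. No paired analysis was possible because each genotype had 1 array. A slide and scan block was not run, since both arrays share them. Signals near background limit *Ifitm1*, *Ifnb1*, the control values of *Ifit1* and *Ifit3*, and the values of *Ifit2* on both arrays.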
